A study of Mus musculus with 2 samples.

Results

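The cell cycle exit genes described here are 10 genes whose proteins hold cells back from division or switch the genes of the cell cycle on and off, out of the 27998 genes of the deposited count matrices. They were chosen by gene symbol, with earlier results of these data known. They comprise the cyclin-dependent kinase (CDK) inhibitor genes Cdkn1a, Cdkn1b, Cdkn2c and Cdkn2d, the pocket protein genes Rb1, Rbl1 and Rbl2, the E2F factor genes E2f2 and E2f4, and the antiproliferative gene Btg2.

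Cells enter the cell cycle when cyclins and their kinases phosphorylate the pocket proteins, which then release E2F factors from the promoters of genes for DNA synthesis. CDK inhibitors block these kinases, so that the pocket proteins stay bound to E2F and division stops. Red cell precursors divide several times while they fill with hemoglobin and then leave the cell cycle for good, and Rb1, E2f2 and E2f4 are known to be needed for normal erythroid maturation in mice.

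The data were droplet-based scRNA-seq counts from 1 wild-type C57BL/6 mouse liver at E12.5, prepared as 2 technical replicate libraries after cell sorting to remove debris, dead cells and doublets. Cell types and subclusters were those of the deposited table, which holds 10537 cells. The table splits the erythroid-committed progenitors (Ery) into Ery 1 and Ery 2 and the erythroblasts (Eryb) into Ery 3 to Ery 6, and keeps the primitive erythroblasts, which carry embryonic globin, apart as EryP. Here Ery 5 and Ery 6 together are called late erythroblasts. The paper on these data describes EryP as derived from the yolk sac. A rise or fall given for EryP is therefore a difference between groups of cells, not a step in the maturation of Ery.

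A unique molecular identifier (UMI) marks 1 captured RNA molecule, and levels are UMIs per 1000000 UMIs of a group of cells (CPM). No group other than the wild-type liver exists and the libraries share this liver, so no test was possible and no p-value is given. In place of a test, a gene was said to rise when its CPM ratio was at least 2 in each library and to fall when it was at most 0.5 in each library, with at least 20 UMIs over both groups in each library. Intervals are exact 95% intervals for counting error only.

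Library 1 amounted to 51969226 UMIs over its kept cells and library 2 to 62738015, and the libraries had 31 barcodes in common. The shallowest kept cell held 504 UMIs in library 1 and 4387 in library 2, so the libraries differ in which cells were kept. The median of UMIs per cell went from 26146 in Ery 1 of library 1 to 4378 in Ery 6, and from 25977 to 7882 in library 2. Over the same subclusters, the median share of globin UMIs went from 0.812% to 58.1% in library 1 and from 0.935% to 79.2% in library 2. In EryP it was 79.6% and 84.2%. A gene can therefore lose CPM because globin takes up the total, so 2 further scales are given: non-globin CPM, with 7 globin genes left out of the total, and UMIs per cell. Of the 5 erythroblast markers, 4 were highest in Eryb in each library, with Hba-a1 highest elsewhere, and all 3 embryonic globin markers were highest in EryP. Of the 5 markers set for Ery, which other blood cells also use, none was highest in Ery in library 1 and 2 were in library 2. The summed level of 5 macrophage markers was 4.41 and 0.778 CPM in Ery, between 1.01 and 3.16 CPM in Ery 5 and Ery 6, and 2.09 and 1.04 CPM in EryP, against 2241 and 1396 CPM in monocytes and Kupffer cells (Mo/KC). The free RNA of each library was taken from its barcodes of 1 to 50 UMIs.

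From Ery to late erythroblasts, 5 of the 10 genes rose in both libraries: the CDK inhibitor genes Cdkn1b, Cdkn2c and Cdkn2d, the factor gene E2f2, and Btg2. Over all 9739 genes tested, 4.54% rose by this rule. Cdkn1a fell, and 73.1% of all genes fell. The median log2 CPM ratio was 1.24 over the 10 members and -2.68 over all genes tested. On the non-globin scale, Rb1 rose as well and 6 members rose in all, against 15% of all genes, and none fell, against 46.5%. The median log2 ratio of all genes was then -1.03. In UMIs per cell, only Cdkn2d and E2f2 rose, against 1.49% of all genes, and Cdkn1a, Rbl1, Rbl2 and E2f4 fell, against 91.9%. The median log2 ratio of all genes on that scale was -4.28. Taken alone, Ery 5 had 6 members up on Ery in CPM (the 5 above and Rb1), where 4.46% of genes rose, and Cdkn1a and Rbl2 fell, where 67.5% fell. Ery 6 alone had 4 up (Cdkn1b, Cdkn2d, E2f2 and Btg2), where 3.87% rose, and Cdkn1a and Rbl1 fell, where 77.5% fell.

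**Figure D1:**
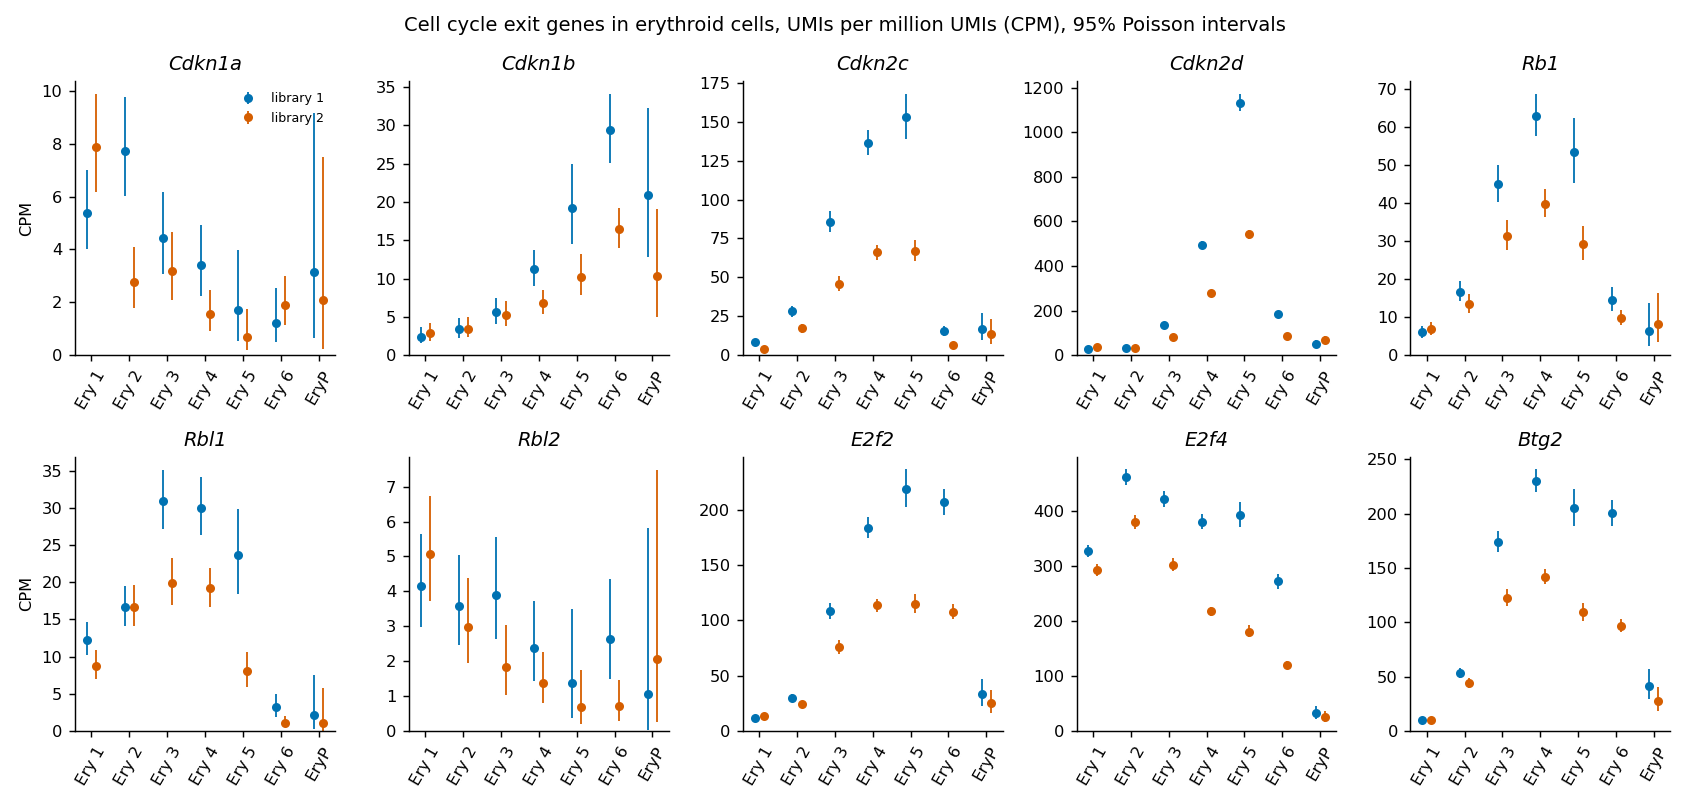
Level of each gene (vertical axis, CPM from 0, own scale per gene) in Ery 1 to Ery 6 and EryP (horizontal axis) for library 1 (blue) and library 2 (orange), with 95% Poisson intervals as bars. Cdkn2c and Cdkn2d stand highest in Ery 5 and are low in Ery 6, Cdkn1b keeps rising to Ery 6, and E2f2 and Btg2 stay high in both.

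In EryP, compared with the same Ery cells, Cdkn1b alone rose in CPM, where 1.78% of 9531 genes rose. Cdkn1a, Rbl1 and E2f4 fell, where 82.5% of genes fell. Of these, Cdkn1a rested on 3 and 2 UMIs in EryP and Rbl1 on 2 and 1. The median log2 CPM ratio of all genes was -3.10 and that of the members -0.23. On the non-globin scale, 7 members rose (Cdkn1a, Cdkn1b, Cdkn2c, Cdkn2d, Rb1, E2f2 and Btg2), where 10.6% of all genes rose, and E2f4 fell, where 38.1% fell. Among the 7, Cdkn1a rested on the UMIs just given, and its intervals hold 1 in both libraries. Rb1 rested on 6 and 8 UMIs, 4 of the 8 in 1 cell, and its interval holds 1 in library 1. The median log2 ratio of all genes was then -0.86. In UMIs per cell no member rose, where 0.609% of genes rose, and 8 fell, where 96% fell, with a median log2 ratio over all genes of -4.77. E2f4 was the member that fell on all 3 scales, and Cdkn1b rose on the scales other than UMIs per cell. Both comparisons share the Ery cells as reference. Set against late erythroblasts, none of 8 members tested rose in EryP in CPM or non-globin CPM, where 2.49% and 7.68% of 5987 genes rose. In CPM, 7 fell (all tested but Cdkn1b), where 29.1% of genes fell, and in non-globin CPM 5 fell (Cdkn2d, Rbl1, E2f2, E2f4 and Btg2), where 13.9% fell.

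**Figure D2:**
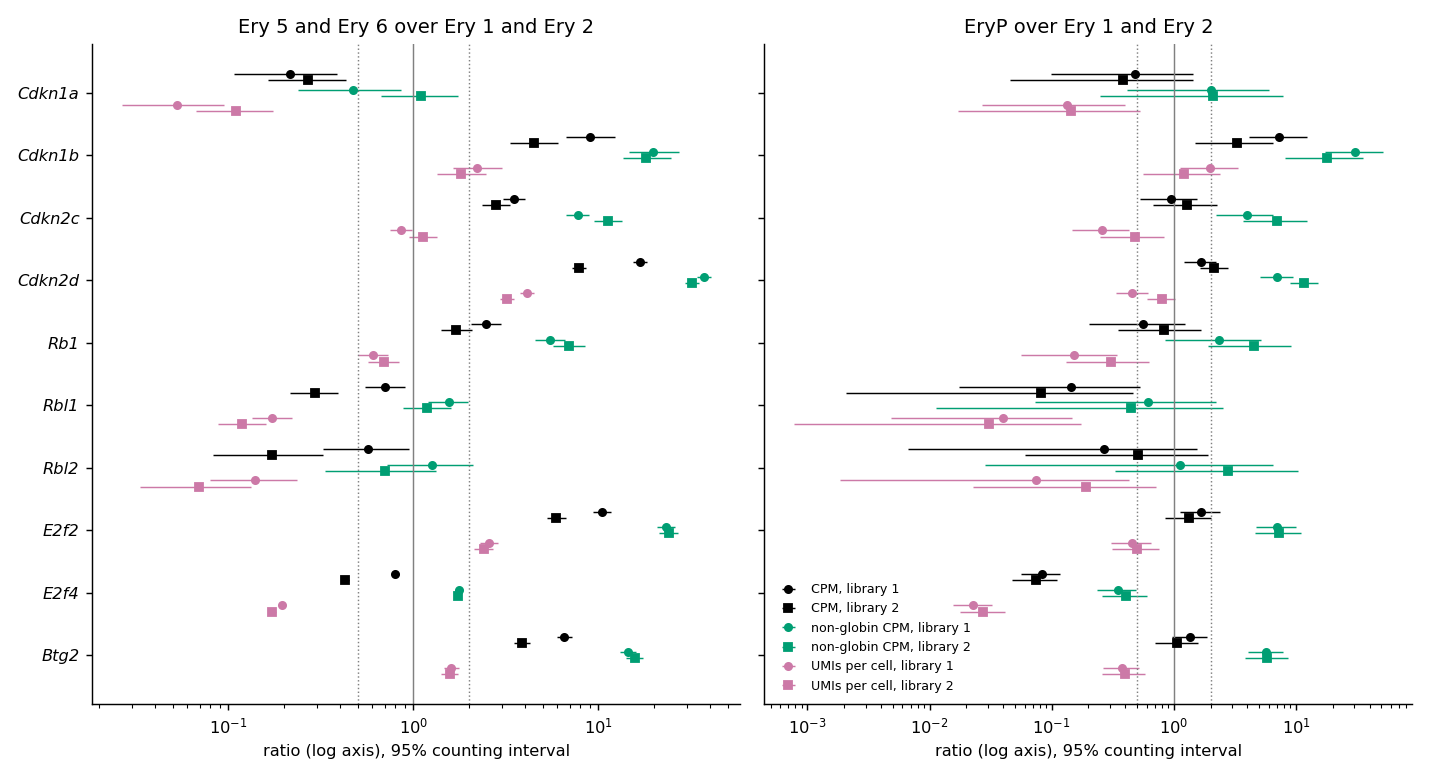
Ratio of late erythroblasts to Ery (left) and of EryP to Ery (right) for each gene on a log axis, on 3 scales (black CPM, green non-globin CPM, pink UMIs per cell), with circles for library 1, squares for library 2 and bars for 95% counting intervals. Solid lines mark a ratio of 1 and dotted lines the ratios of 0.5 and 2. Cdkn1b, Cdkn2c, Cdkn2d, E2f2 and Btg2 lie right of the upper dotted line in late erythroblasts in CPM and non-globin CPM.

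Cdkn1b encodes p27, which blocks the CDK2 kinase with its cyclins. Its level was 2.43, 3.38, 5.59, 11.2, 19.2 and 29.3 CPM in Ery 1 to Ery 6 of library 1. In library 2 it was 2.91, 3.45, 5.25, 6.85, 10.2 and 16.5 CPM. In CPM, the level thus increased at every step in both libraries. Intervals of neighbours overlapped from Ery 1 to Ery 3 in library 1 and from Ery 1 to Ery 5 in library 2. In UMIs per cell, Cdkn1b was lower in Ery 2 than in Ery 1 in both libraries. The ratio of late erythroblasts to Ery was 8.97 (6.65 to 12.3) in library 1 and 4.46 (3.32 to 6.08) in library 2. On the non-globin scale these were 19.8 and 18.1, so the libraries differed little once globin was left out. In UMIs per cell the ratios were 2.20 and 1.81, from 5.90 and 6.97 UMIs per 100 cells in Ery to 13 and 12.6 in late erythroblasts. In EryP the level was 20.9 and 10.4 CPM, on 20 and 10 UMIs, and the ratio to Ery was 7.23 (4.11 to 12.3) and 3.27 (1.49 to 6.46). Compared with late erythroblasts, EryP differed by a ratio of 0.806 (0.483 to 1.28) and 0.732 (0.346 to 1.37), both within counting error of 1.

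Cdkn1b is a low-count gene, and no cell of the 6 subclusters or EryP held more than 3 of its UMIs. After each cell was thinned to 3600 UMIs, 0.515% and 0.978% of Ery cells held a UMI. The share was 9.48% (7.72 to 11.5%) and 5.70% (4.44 to 7.18%) in Ery 6, and 4.96% and 4.24% in EryP. Without thinning the shares were 5.79% and 6.72% in Ery, 12.4% and 13.1% in Ery 6, and 10% and 8.47% in EryP. The unthinned shares of Ery 1 to Ery 4 were 6.13, 5.57, 5.48 and 6.19% in library 1. They were 7.24, 6.32, 6.21 and 6.16% in library 2, and Ery 5 had 10.1% and 9.49%. In hepatoblasts (Hepa), a liver cell type that is not of the blood, 0 of 24 thinned cells held a UMI in library 1, with an upper limit of 14.2% by the Clopper-Pearson method, and 6.45% of 31 cells did in library 2. Without thinning these shares were 6.06% and 25.8%. The median depth of hepatoblasts was 22391 and 21910 UMIs per cell before thinning, against 4378 and 7882 in Ery 6. In library 2 the share of Ery 6 was thus not above that of hepatoblasts, so shares do not set them apart there. Whether hepatoblasts hold Cdkn1b as background or express it was not tested. The hepatoblast level was 3.12 and 12.4 CPM. Thinning left out 155 Ery, 20 Ery 5, 237 Ery 6, 29 EryP and 9 hepatoblast cells of library 1 as too shallow. Free RNA making up 10% of a cell's UMIs would give 1.57 and 1.84 CPM of Cdkn1b, below its level in every erythroid group.

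The gene lies on chromosome 6 (chr6:134920401-134925513, GRCm38, plus strand). The 250 bases before its start are shown because it was the only member to rise in CPM in both late erythroblasts and EryP. None of the motifs searched here was found in them: AGATAA, bound by GATA factors, TTTGAA, the cell cycle homology region (CHR), and the E2F letters, which are TTCCCGC or TTGGCGC or TTCGCGC or TTGCCGC, on both strands.
Cdkn1b, chr6:134920151-134920400, GRCm38.p6, plus strand: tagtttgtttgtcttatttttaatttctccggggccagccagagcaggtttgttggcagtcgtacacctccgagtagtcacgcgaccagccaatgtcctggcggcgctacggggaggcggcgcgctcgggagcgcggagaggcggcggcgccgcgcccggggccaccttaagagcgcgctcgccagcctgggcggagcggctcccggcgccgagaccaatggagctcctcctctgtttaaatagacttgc

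Cdkn1a encodes p21, the other CIP/KIP inhibitor among the members and a well-known target of p53. Its level was 5.37, 7.73, 4.42, 3.39, 1.71 and 1.23 CPM in Ery 1 to Ery 6 of library 1, and 7.86, 2.76, 3.18, 1.56, 0.683 and 1.92 CPM in library 2. It was lowest in Ery 6 of library 1 and in Ery 5 of library 2. From Ery to late erythroblasts the ratio was 0.214 (0.108 to 0.388) and 0.271 (0.164 to 0.430). A single Ery 2 cell of library 1 held 65 of the 71 UMIs of that subcluster. With the cell richest in Cdkn1a left out of each group, a choice made after the data had been seen, the ratio was 0.412 in library 1 and 0.183 in library 2. On the non-globin scale it was 0.473 (0.238 to 0.856) and 1.10 (0.666 to 1.75), so that no fall was found in library 2. The late erythroblast level, 1.39 and 1.46 CPM, is near the 2.53 and 0.612 CPM that 10% free RNA would give.

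In EryP, the ratio of Cdkn1a to Ery was 0.481 (0.098 to 1.44) and 0.384 (0.046 to 1.43) in CPM but 2.02 (0.411 to 6.04) and 2.09 (0.25 to 7.77) in non-globin CPM. All 4 intervals hold 1. Outside the erythroid cells Cdkn1a was higher, at levels of 31.9 and 20.8 CPM in hematopoietic stem and progenitor cells (HSPC, spelled HPSC in the table), 50.1 and 31.6 CPM in Mo/KC, and 29.1 and 21.6 CPM in granulocytes (G). Of these CIP/KIP genes, Cdkn1b therefore rose and Cdkn1a fell in late erythroblasts in CPM.

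Cdkn2c encodes p18 and Cdkn2d encodes p19, INK4 inhibitors that bind CDK4 and CDK6 and keep them from D-type cyclins. Cdkn2d had the larger ratio in late erythroblasts. Its level was 30.0, 30.4, 136, 495, 1132 and 186 CPM in Ery 1 to Ery 6 of library 1. In library 2 it was 34.8, 30.1, 81.4, 280, 542 and 86.5 CPM. It was thus level from Ery 1 to Ery 2, climbed to Ery 5, and dropped in Ery 6. The ratio of late erythroblasts to Ery was 16.8 (15.4 to 18.4) in library 1 and 7.86 (7.21 to 8.59) in library 2. On the non-globin scale, Ery 5 held 2317 and 2030 CPM against 30.8 and 34.2 CPM in Ery. In UMIs per 100 cells, the level was 61.7 and 71.5 in Ery, 666 and 538 in Ery 5, and 86.9 and 72.9 in Ery 6. The rise in Ery 5 was therefore found on all 3 scales, and Ery 6 returned to near the level of Ery per cell.

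In thinned cells, a Cdkn2d UMI was found in 9.39% and 11.6% of Ery cells, in 96.2% (94.1 to 97.8%) and 79.7% (76.2 to 82.8%) of Ery 5 cells, and in 38.94% and 23.0% of Ery 6 cells. Without thinning, the shares were 36.2% and 40.0% in Ery, 97.2% and 95.9% in Ery 5, and 43.8% and 40.4% in Ery 6. In hepatoblasts they were 8.33% and 6.45% after thinning and 27.3% and 25.8% before it. The Ery 5 share stood far above both. In EryP the level was 50.1 and 69.4 CPM, a ratio to Ery of 1.66 (1.21 to 2.23) and 2.13 (1.63 to 2.75). Library 2 alone passed a ratio of 2. In non-globin CPM the ratios were 6.97 and 11.6, and per cell 0.458 and 0.794. One EryP cell of library 2 held 13 of the 67 UMIs there. With the richest cell left out of each group, a choice made after the data had been seen, the CPM ratios were 1.57 and 1.78. Neither library then passed a ratio of 2. The ratio of EryP to late erythroblasts was 0.0988 (0.0728 to 0.131) and 0.272 (0.210 to 0.346).

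Cdkn2c was also highest in Ery 5 in CPM and dropped in Ery 6. Its level was 8.20, 28.1, 85.8, 136, 153 and 15.5 CPM in Ery 1 to Ery 6 of library 1, and 4.20, 17.2, 45.8, 66.1, 67.3 and 6.76 CPM in library 2. It differed from Cdkn2d in that it had already increased from Ery 1 to Ery 2. In library 2, its levels in Ery 4 and Ery 5 were within counting error of each other. From Ery to late erythroblasts the ratio was 3.49 (3.04 to 4.01) and 2.78 (2.35 to 3.31). Per cell the ratio was 0.858 (0.747 to 0.986) and 1.13 (0.952 to 1.34), so it did not rise on that scale. Ery 5 alone did pass the rule for a rise of Cdkn2c per cell in both libraries. Late erythroblasts were also not alike: with Ery 6 alone, the CPM ratio to Ery over both libraries was 0.697. In EryP the level was 16.7 and 13.5 CPM, with ratios to Ery of 0.939 (0.531 to 1.55) and 1.28 (0.670 to 2.25), whose intervals hold 1.

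Cdkn2c lies on chromosome 4 (chr4:109660876-109667189, GRCm38, minus strand) and Cdkn2d on chromosome 9 (chr9:21288410-21291407, minus strand). Of the 8 members with a RefSeq promoter, 2 held E2F letters in the 250 bases before a start site, Cdkn2c and Rbl1, against 7.89% of all 32851 promoters. Neither gene is set apart by this, since a match is a match of letters only. A member with 2 start sites was counted if either matched, whereas the share is over single promoters. The Cdkn2c match stands 25 bases before a RefSeq start that lies inside the gene as GENCODE draws it, and all 250 bases of that window are exonic there. The 29 bases around the match are given with the letters in capitals.
Cdkn2c, chr4:109666764-109666792, GRCm38.p6, minus strand: ggggcccggccTTCCCGCtcccgcggcgc

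The step from Ery 5 to Ery 6 separated the members. Of 8 members tested, Cdkn2c, Cdkn2d, Rb1 and Rbl1 fell, where 23.1% of 5860 genes fell, and none rose, where 3.05% rose. The same 4 genes fell in non-globin CPM, where 16.2% of genes fell and 4.52% rose. The CPM ratio of Ery 6 to Ery 5 was 0.101 (0.0795 to 0.127) and 0.101 (0.0764 to 0.131) for Cdkn2c, and 0.164 (0.153 to 0.176) and 0.160 (0.148 to 0.172) for Cdkn2d. For E2f2 it was 0.944 (0.856 to 1.04) and 0.935 (0.848 to 1.03), and for Btg2 0.976 (0.883 to 1.08) and 0.887 (0.802 to 0.982). Cdkn1b was the one member above 1 beyond counting error in both libraries, at 1.53 (1.12 to 2.11) and 1.61 (1.19 to 2.20).

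Across the same step, all 15 genes of the mitosis list fell (among them Ube2c and Cenpf), as did 9 of 15 S phase genes. The summed level of the mitosis list was 10454 and 5231 CPM in Ery 5, 2431 and 1126 CPM in Ery 6, and 2775 and 2620 CPM in Ery. In CPM, Cdkn2c and Cdkn2d were thus highest in Ery 5, where the mitosis list was highest. In UMIs per 100 cells, that list was at 6117 and 6045 in Ery 1 and at 6144 and 5194 in Ery 5. On that scale it was thus not highest in Ery 5 of library 2. The part of these 2 genes and the mitosis genes in each other's levels was not tested.

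Within Ery 6, thinned cells with a mitosis UMI (926 in library 1 and 957 in library 2) and without one (55 and 219) could be compared in each library. Cdkn2d was 175.5 CPM with and 121 CPM without in library 1, a ratio of 1.45 (0.963 to 2.28), and 86.8 and 53.3 CPM in library 2, a ratio of 1.63 (1.18 to 2.31). In non-globin CPM these ratios were 1.32 (0.88 to 2.08) and 1.40 (1.01 to 1.98), so library 2 alone lay above 1 beyond counting error. The same held for E2f4, at 1.256 (0.911 to 1.778) and 1.328 (1.026 to 1.743) in non-globin CPM. Btg2 was at 1.261 (0.864 to 1.913) and 1.237 (0.942 to 1.648) on that scale, and both intervals hold 1. For E2f2 the ratio was 1.15 (0.821 to 1.65) and 0.848 (0.668 to 1.08), and in non-globin CPM 1.05 (0.75 to 1.51) and 0.728 (0.573 to 0.932), so the libraries lay on different sides of 1. Cdkn1b held 2 and 12 UMIs in the cells without, with ratios of 2.79 (0.752 to 23.4) and 1.11 (0.587 to 2.26). Sums over both libraries are not given, since library 2 holds most of the cells without and has the lower CPM. No such comparison could be made in Ery 3 and Ery 5, where every thinned cell held a mitosis UMI.

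**Figure D3:**
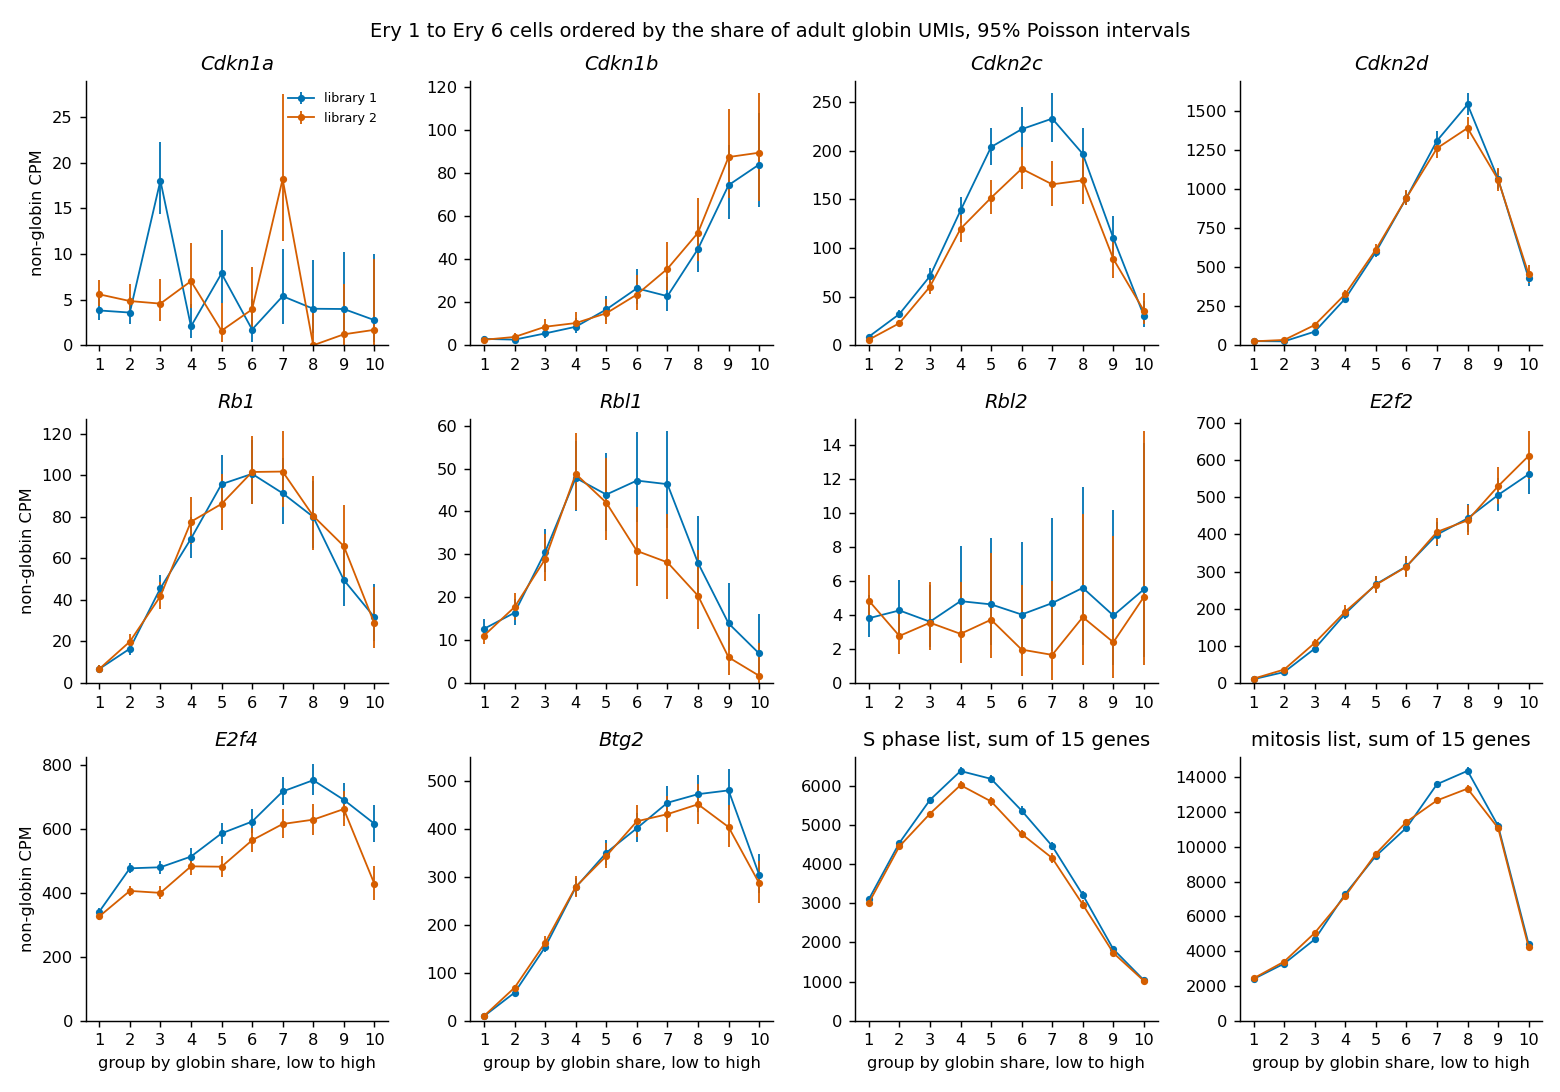
Ery 1 to Ery 6 cells of each library ordered by their share of adult globin UMIs and cut into 10 groups of equal size (horizontal axis, low to high share), with the non-globin CPM of each gene, and of the summed S phase and mitosis lists, on the vertical axis and 95% Poisson intervals as bars. S phase genes peak in group 4, mitosis genes and Cdkn2d in group 8, and Cdkn1b and E2f2 are highest in group 10. The group 10 intervals of Cdkn1b and E2f2 overlap those of group 9.

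A second order, which does not use the subclusters, was made on the non-globin scale. When Ery 1 to Ery 6 cells were ordered by their share of adult globin UMIs in 10 groups, the summed S phase list peaked in group 4, at 6375 and 6015 non-globin CPM. Rbl1 was highest there in both libraries, at 47.8 and 48.7. Groups 5 to 7 of library 1 and group 5 of library 2 were within counting error of this Rbl1 level. Rb1 reached 101 in group 6 of library 1 and 102 in groups 6 and 7 of library 2. Cdkn2c was highest in group 7 of library 1, at 233, and in group 6 of library 2, at 182. The mitosis list and Cdkn2d peaked in group 8, Cdkn2d at 1539 and 1388, and Btg2 was highest in group 9 of library 1, at 481, and group 8 of library 2, at 452. E2f2 and Cdkn1b were the members highest in group 10 in both libraries, where E2f2 reached 562 and 612 and Cdkn1b 84.0 and 89.6. In CPM the peaks lay in part elsewhere. Cdkn1b was then highest in group 9 in both libraries, at 31.9 and 18.7 CPM against 28.8 and 14.1 CPM in group 10, and E2f2 in group 9 of library 1 and group 7 of library 2. The S phase list was then highest in groups 3 and 2 of libraries 1 and 2, and the mitosis list in groups 7 and 5. Both libraries come from the same liver, so this order was not measured in separate animals.

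Rb1, Rbl1 and Rbl2 encode the pocket proteins pRB, p107 and p130. pRB binds the activating E2F factors, whereas p107 and p130 bind E2F4 and, with the MuvB proteins, form the DREAM complex that represses cell cycle genes. The level of Rb1 was 6.08, 16.8, 45.0, 63.1, 53.4 and 14.6 CPM in Ery 1 to Ery 6 of library 1, and 6.79, 13.4, 31.4, 39.9, 29.4 and 9.79 CPM in library 2. It was highest in Ery 4 in CPM, and in Ery 5 in non-globin CPM. The ratio of late erythroblasts to Ery was 2.47 (2.05 to 2.99) in library 1 and 1.71 (1.41 to 2.07) in library 2, so Rb1 passed the rule in 1 library only. In EryP it was 6.26 and 8.29 CPM, on 6 and 8 UMIs, and its ratios to Ery of 0.558 (0.202 to 1.23) and 0.828 (0.352 to 1.67) hold 1.

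Rbl1 was 12.3, 16.7, 30.9, 30.0, 23.6 and 3.16 CPM in Ery 1 to Ery 6 of library 1, and 8.72, 16.7, 19.9, 19.2, 8.02 and 1.11 CPM in library 2. Its ratio of late erythroblasts to Ery was 0.703 (0.545 to 0.897) and 0.293 (0.216 to 0.392). Library 2 alone passed the rule for a fall, and in non-globin CPM the ratios were 1.55 and 1.19. Ery 6 was lower than Ery in both libraries in CPM. In EryP, 2 and 1 UMIs gave ratios of 0.145 (0.0175 to 0.529) and 0.0824 (0.00208 to 0.464), and 2.09 and 1.04 CPM are near the 1.67 and 1.02 CPM that 10% free RNA would give.

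Rbl2, which encodes the pocket protein most tied to resting cells, was the least counted pocket gene, at 4.15, 3.59, 3.90, 2.39, 1.37 and 2.64 CPM for Ery 1 to Ery 6 of library 1. In library 2 these were 5.06, 2.99, 1.83, 1.39, 0.683 and 0.707 CPM. In Ery 5 it rested on 4 UMIs in each library. Its CPM ratio of late erythroblasts to Ery was 0.568 (0.324 to 0.95) and 0.172 (0.0822 to 0.326), so library 2 alone passed the rule for a fall. In non-globin CPM the ratio was 1.25 (0.716 to 2.1) and 0.699 (0.334 to 1.32), and both intervals hold 1. EryP held 1 and 2 UMIs, with ratios to Ery of 0.269 (0.00672 to 1.54) and 0.511 (0.0607 to 1.91).

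In CPM, the 3 pocket genes thus differed in course along the subclusters: Rb1 and Rbl1 had a peak in the middle, and Rbl2 had no such peak. The Rbl1 levels of Ery 3 and Ery 4 were within counting error of each other in both libraries. In non-globin CPM, Rbl1 was higher in Ery 4 than in Ery 3 in both libraries. Rb1 lies on chr14:73183673-73325822 (minus strand), Rbl1 on chr2:157145893-157204534 (minus strand) and Rbl2 on chr8:91070057-91123844 (plus strand), all GRCm38. The Rbl1 promoter is shown as the second with E2F letters, 17 bases before the start, in capitals.
Rbl1, chr2:157204535-157204784, GRCm38.p6, minus strand: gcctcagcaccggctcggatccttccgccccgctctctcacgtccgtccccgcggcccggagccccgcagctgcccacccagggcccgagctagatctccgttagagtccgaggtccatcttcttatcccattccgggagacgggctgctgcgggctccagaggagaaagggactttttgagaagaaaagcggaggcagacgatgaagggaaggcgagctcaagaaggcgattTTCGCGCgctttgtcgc

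E2f2 encodes an E2F factor that pRB binds. Its level was 11.4, 29.6, 108, 183, 219 and 207 CPM in Ery 1 to Ery 6 of library 1, and 13.7, 24.0, 75.7, 114, 115 and 108 CPM in library 2. It rose early and stayed high, with Ery 4, Ery 5 and Ery 6 of library 2 within counting error of each other. From Ery to late erythroblasts the ratio was 10.4 (9.35 to 11.7) and 5.92 (5.26 to 6.67), in non-globin CPM 23.1 and 24.0, and per cell 2.56 and 2.40. With Cdkn2d, it was the member that rose on all 3 scales. In EryP it was 33.4 and 24.9 CPM, with ratios to Ery of 1.65 (1.11 to 2.37) and 1.33 (0.841 to 2.01), and 0.158 (0.108 to 0.224) and 0.225 (0.144 to 0.336) to late erythroblasts.

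E2f4 encodes the E2F factor of repressor complexes. It was at 327, 461, 421, 380, 392 and 272 CPM in Ery 1 to Ery 6 of library 1, and at 292, 380, 302, 217, 180 and 120 CPM in library 2. The ratio of late erythroblasts to Ery was 0.798 (0.763 to 0.834) and 0.426 (0.406 to 0.447) in CPM, but 1.76 (1.69 to 1.84) and 1.73 (1.65 to 1.82) in non-globin CPM. The direction of E2f4 thus turned with the scale, and neither of these scales passed the rule in both libraries. In UMIs per 100 cells it went from 801 and 736 in Ery to 157 and 127 in late erythroblasts. In EryP it fell on all 3 scales: to 32.4 and 24.9 CPM, with ratios to Ery of 0.0826 (0.0561 to 0.117) and 0.0743 (0.0476 to 0.111), and of 0.347 and 0.405 in non-globin CPM. These EryP levels are close to the 28 and 23.2 CPM that 10% free RNA would give.

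E2f2 lies on chr4:136172394-136196057 (plus strand) and E2f4 on chr8:105297663-105305370 (plus strand), GRCm38.

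Btg2 encodes an antiproliferative protein that recruits the deadenylases which shorten mRNA tails. Its level was 10.2, 53, 174, 230, 205 and 200 CPM in Ery 1 to Ery 6 of library 1, and 9.69, 43.9, 122, 142, 109 and 96.8 CPM in library 2. It had the steepest relative step from Ery 1 to Ery 2, after which it peaked in Ery 4 in CPM. In non-globin CPM it was highest in Ery 6 in both libraries. Ery 6 was not uniform in Btg2. In the order by globin share, it was at 481 and 404 non-globin CPM in group 9 and at 304.5 and 287 in group 10. Of the group 10 cells, 465 of 475 and 432 of 443 were Ery 6. From Ery to late erythroblasts the ratio was 6.54 (5.95 to 7.19) and 3.86 (3.48 to 4.29), in non-globin CPM 14.5 and 15.7, and per cell 1.61 (1.46 to 1.77) and 1.57 (1.41 to 1.74). In EryP it was 41.8 and 28 CPM, with ratios to Ery of 1.35 (0.957 to 1.86) and 1.07 (0.695 to 1.57), both of whose intervals hold 1.

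Over the 26 cell groups of both libraries (7 cell types and the 6 Ery subclusters), log2(CPM + 1) of Btg2 and E2f2 had a Pearson correlation of 0.900, the highest between members. These points share the libraries, their depth and their globin share, so this is a description. Among the genes with the highest correlation were Cdc25b, Lockd and E2f2 for Btg2 (0.931 to 0.900), and Grina and Slc25a37 for E2f2 (0.957 and 0.938). For Cdkn2d they were Rap1a, Gtpbp2 and Mafg (0.863 to 0.844), for Cdkn2c Mxd3, Cdkn3 and Hist1h2bm (0.845 to 0.807), and for Cdkn1b Bcl2l1 and Sertad3 (0.824 and 0.815). Slc25a37 encodes the mitochondrial iron importer mitoferrin 1 and Bcl2l1 the survival protein BCL-XL.

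The promoters of E2f2 and Btg2 are shown because their levels were the most alike. Btg2 lies on chr1:134075170-134079120 (minus strand, GRCm38). Neither sequence held the GATA, CHR or E2F letters, though a second start site of E2f2 held TTTGAA 31 bases upstream. The GATA letters were found in the promoters of 0 of 8 members, against 9.99% of all promoters, and the CHR letters in those of 2 (Rbl2 and E2f2), against 16%. Here too members were counted over all their start sites, and the shares are over single promoters.
E2f2, chr4:136172024-136172273, GRCm38.p6, plus strand: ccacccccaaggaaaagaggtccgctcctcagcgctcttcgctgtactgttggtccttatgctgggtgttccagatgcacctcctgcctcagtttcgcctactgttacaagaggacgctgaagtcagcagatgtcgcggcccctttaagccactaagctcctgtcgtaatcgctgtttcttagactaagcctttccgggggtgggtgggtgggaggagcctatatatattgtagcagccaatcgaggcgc
Btg2, chr1:134079156-134079405, GRCm38.p6, minus strand: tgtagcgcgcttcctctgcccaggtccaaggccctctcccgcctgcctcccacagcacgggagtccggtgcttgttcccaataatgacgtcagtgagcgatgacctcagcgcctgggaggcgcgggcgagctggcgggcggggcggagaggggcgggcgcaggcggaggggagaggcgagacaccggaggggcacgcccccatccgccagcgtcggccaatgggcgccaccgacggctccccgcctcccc

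The targets and partners of the members were measured in the same way, and their counts are to be read against the 73.1% of all genes that fell and the 4.54% that rose from Ery to late erythroblasts in CPM, and the 46.5% and 15% in non-globin CPM. Of 8 cyclin and kinase genes tested, none rose and 6 fell in CPM, a share near that of all genes, and in non-globin CPM 4 fell and Ccnd3 and Ccna2 rose. Cdk4 and Cdk6, the kinases that the INK4 proteins bind, fell on both scales and had, with Ccnd2, the lowest ratios of the list. Cdk4 went from 740 and 678 CPM in Ery to 22.2 and 9.71 CPM in late erythroblasts, and Cdk6 from 77.5 and 81.9 to 1.74 and 0.825 CPM. In Ery 5, where Cdkn2d was highest, Cdk4 was at 21.2 and 9.22 CPM. Ccnd3, the gene of a D-type cyclin, was at 335 and 309 CPM in Ery and 376 and 230 CPM in late erythroblasts, and at 343 and 324 against 849 and 984 in non-globin CPM. It was highest between these groups, at 1124 and 878 CPM in Ery 3, and at 1497 and 1594 non-globin CPM in Ery 4. In UMIs per cell, all 8 cyclin and kinase genes fell, Ccnd3 and Ccna2 among them, where 91.9% of all genes fell. In EryP all 8 cyclin and kinase genes fell in CPM, where 82.5% of all genes fell, and 6 fell in non-globin CPM, where 38.1% fell.

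Of the other E2F and DP genes, which encode further E2F factors and their partners, 1 of 8 rose in CPM (Tfdp2, ratio over both libraries 6.83, 6.46 to 7.21) and E2f3, E2f6 and E2f1 fell, the last named after its values were seen. In non-globin CPM 3 rose, Tfdp2 among them, and E2f3 and E2f6 fell. Of 7 genes for the MuvB core, Mybl2 and Foxm1, none rose and Lin52 and Mybl2 fell in CPM, while 2 rose and none fell in non-globin CPM. Of the other CDK inhibitors, Cdkn1c fell from 2.78 and 2.39 CPM to 1.16 and 0.698 CPM, but did not fall in non-globin CPM. Cdkn3 had a CPM ratio of 3.25 and 1.98, just short of the rule in library 2, and rose in non-globin CPM. Cdkn2a had no UMI in Ery or late erythroblasts, and Cdkn2b had none in late erythroblasts. Of 5 genes of the ligase that degrades p27, none rose and Skp2, Cul1 and Skp1a fell in CPM, and none rose or fell in non-globin CPM. In UMIs per cell, all 5 ligase genes fell, as did Cdkn1c and the 7 genes for the MuvB core, Mybl2 and Foxm1. Of the other E2F and DP genes, 7 fell and Tfdp2 rose on that scale, where 91.9% of all genes fell and 1.49% rose.

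Of 6 MYC antagonists, Mxd1 (CPM ratio 15.7, 13.4 to 18.6) and Mxd3 (4.09, 3.54 to 4.74) rose on both scales, while Mxd4, Mnt and Mga fell in CPM and Mxd4 alone in non-globin CPM. Of 3 growth arrest genes tested, Gadd45a (9.38, 9 to 9.78) and Ccng2 (15.5, 12 to 20.3) rose on both scales and Gadd45g fell in CPM alone. Of 4 BTG/TOB genes, the relatives of Btg2, none rose and Btg3 and Tob2 fell in CPM, while in non-globin CPM Btg1 rose and none fell. Of 8 p53 targets, 7 fell in CPM, and in non-globin CPM 4 fell and Bbc3 rose. Bbc3 had CPM ratios of 2.59 and 0.976. In UMIs per cell, Mxd1, Gadd45a and Ccng2 alone rose among these 4 lists, where 1.49% of all genes rose. On that scale 3 MYC antagonists, Gadd45g, 3 BTG/TOB genes and 7 p53 targets fell, where 91.9% of all genes fell. In EryP, Btg1 (6.01, 5.05 to 7.13), Mxd1 (3.37, 2.17 to 5.06), Gadd45a (2.50, 2.23 to 2.80) and Ccng2 (11, 7.12 to 16.7) rose in CPM, where 1.78% of all genes rose. Of 4 BTG/TOB genes, 6 MYC antagonists and 3 growth arrest genes tested, 2, 1 and 0 fell, where 82.5% of all genes fell. Of 7 p53 targets, 7 E2F and DP, 7 MuvB and 5 ligase genes, 6, 5, 6 and 5 fell in CPM and none rose. In non-globin CPM, 3, 3, 2 and 0 of these fell, where 38.1% of all genes fell. Bbc3 and Tfdp2 rose on that scale, where 10.6% of all genes rose. Of the BTG/TOB genes, MYC antagonists and growth arrest genes, 2, 2 and 3 then rose and 1, 0 and 0 fell. In UMIs per cell, Ccng2 alone of all these lists rose, where 0.609% of all genes rose.

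**Figure D4:**
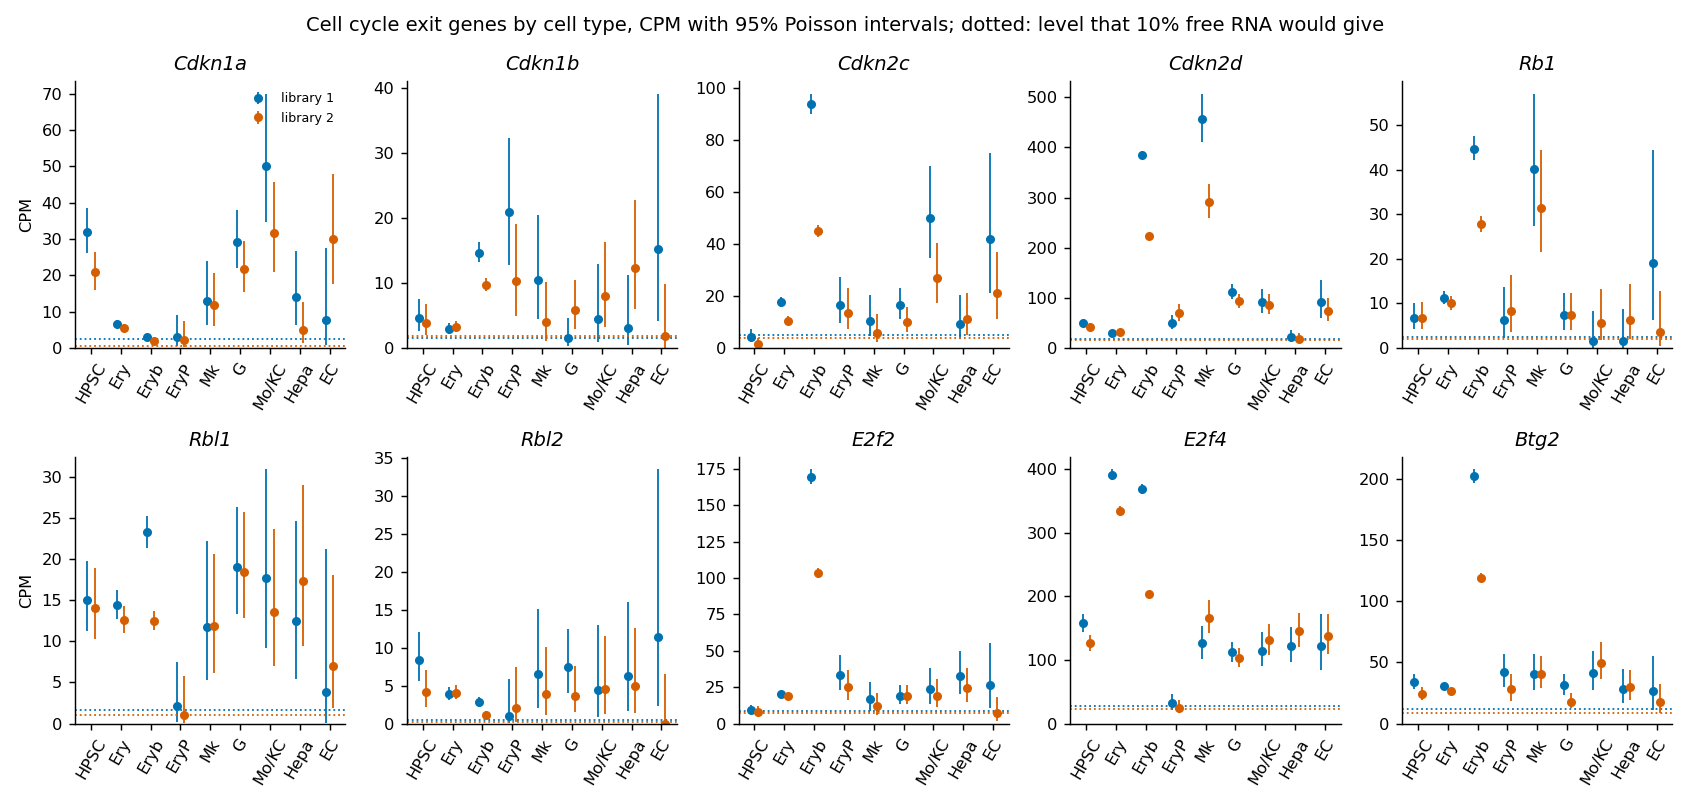
Level of each gene (vertical axis, CPM from 0, own scale per gene) in the 9 cell types of the deposited table (horizontal axis) for library 1 (blue) and library 2 (orange), with 95% Poisson intervals as bars and dotted lines for the level that 10% free RNA would give. Cdkn1a is highest outside the erythroid cells, and Cdkn2d is high in Mk as well as in Eryb.

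Outside the erythroid cells, the members differed in level. Cdkn2d was at 457 and 292 CPM in megakaryocytes (Mk), above its 385 and 224 CPM in Eryb, and at 112 and 92.8 CPM in G. Rb1 was at 40.3 and 31.6 CPM in Mk, close to the 44.8 and 27.8 CPM of Eryb. Globin made up 36.7% and 59.2% of the UMIs of Eryb, against 1.60% and 5.68% in Mk. In non-globin CPM, Cdkn2d and Rb1 were higher in Eryb than in Mk in both libraries. In UMIs per cell, both genes were higher in Mk. Cdkn2c was at 50.1 and 27.1 CPM in Mo/KC, on 34 and 24 UMIs, and at 42.0 and 21.2 CPM in endothelial cells (EC), on 11 and 12 UMIs. In HSPC, Cdkn2c was at 4.35 and 1.60 CPM, below the 4.96 and 3.93 CPM that 10% free RNA would give, and E2f2 was at 9.28 and 8 CPM against 8.36 and 7.24 CPM. E2f4 ranged from 103 to 167 CPM in the cell types other than Ery, Eryb and EryP.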

How the data were processed

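Raw UMI counts per gene and barcode were deposited by the authors for each library, once over every barcode and once over cell barcodes, with a table of other, unitless columns deposited by the authors (cell names, clusters and cell types). Per the submitters' processing notes, bcl2fastq 2, Cell Ranger 2.1.1 with mm10 and Seurat 3.2.0 were used. Sequencing reads were not analysed here. Of the series text, the methods call the libraries technical replicates of 1 liver. Counts were summed per group and library, each cell being assigned to its library by its name. Poisson, Clopper-Pearson and conditional binomial 95% intervals cover counting error only. Cells were thinned to 3600 UMIs with seed 1. No further doublets were removed.

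The members and the 11 gene lists were chosen with earlier results of these data known. All members are named, with, per list, at most 3 of the highest and 3 of the lowest ratios, and the 3 genes most alike to each rising member by Pearson correlation of log2(CPM + 1) over cell groups, among 7356 genes reaching 20 CPM in each library. Some of these genes are not reported here. E2f1 was named after its values were seen. The rule for a rise or fall in CPM, the ratio intervals and the thinning were tested on simulated counts. These had counting error only, without UMIs gathered in single cells, and the other steps were not simulated.

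Gene positions are from GENCODE (GRCm38) and promoters from RefSeq (GRCm38.p6), which matched 8 of 10 members. Rb1 and E2f4 have no promoter shown. Fold and scale alternatives, cell filters and others were computed. The tools were scipy 1.17.1, numpy 2.4.6 and pandas 2.3.3 in Python 3.11.15, with matplotlib 3.10.9 for plots.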

Additional observations from a re-analysis of the deposited data

How the results depend on the processing

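With 1 liver, differences between animals could not be measured. No paired analysis was possible because the libraries belong to 1 group and no test was made. The number of members rising in late erythroblasts was 5 in CPM and 2 in UMIs per cell, and ranged from 5 to 6 with a library left out. The number falling was 1 in CPM, 0 in non-globin CPM, 4 in UMIs per cell, 2 with a fold of 1.5, with Ery 5 alone, with Ery 6 alone, or with a filter on genes (cells with 1000 or more genes and mitochondrial UMIs under 10%), and 1 to 4 with a library left out. Without library 1, these were Cdkn1a, Rbl1, Rbl2 and E2f4. The number rising in EryP was 1 in CPM, 7 in non-globin CPM, 0 in UMIs per cell, 2 with a fold of 1.5 or with free RNA subtracted (Cdkn1b and Cdkn2d), 3 against Ery 1 alone, 6 with the filter on genes, and 1 to 2 with a library left out (2 without library 1). That filter left 13 and 11 EryP cells. The number falling in EryP was 3 in CPM, 1 in non-globin CPM, 8 in UMIs per cell, 1 with the filter on genes, and 3 to 4 with a library left out. The ratio of Cdkn1a in EryP to Ery was 0.436 in CPM and 2.06 in non-globin CPM. That of Cdkn2c in late erythroblasts to Ery was 2.87 in CPM, 0.948 in UMIs per cell and 0.697 with Ery 6 alone. Why the gene filter and the reference moved the counts was not tested. A common minimum of UMIs per cell, leaving out the 4% of cells with most UMIs or shared barcodes, and no UMI minimum left all 4 counts within 1.5 times. So did leaving out the cell richest in each member, chosen after the data had been seen, but then Rb1 and Rbl2 joined the genes falling in EryP and Cdkn1a left them.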
